A study of Bos taurus with 4 samples.

Results

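Transcripts of 10 enzymes of serine, glycine and folate one-carbon metabolism were followed in bovine early blastocysts from the same heifers at donor ages of 11 and 14 months. The enzymes were PHGDH, PSAT1, PSPH, SHMT1, SHMT2, MTHFD1, MTHFD2, MTHFD1L, CTH and CBS, and all array probes annotated with one of these symbols were taken. This gave 16 probes of 43794 on the array, and all 16 passed the filter on dim probes, which left 36447. The set was chosen by a readout of these same arrays, the log2 ratio of 11 over 14 months, with PHGDH already known to lie among the genes with the smallest p. The ratios of the enzymes between the ages are therefore a description and were not used as a test of the set.

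Each of 4 two-colour arrays carried 2 embryo pools of 1 Holstein heifer, one from oocytes collected when the heifer was 11 months old and one from oocytes collected at 14 months. At both ages the heifers had received progesterone and then FSH, oocytes were matured and fertilized in vitro with semen of adult bulls, and embryos were collected as early blastocysts at 168 h after fertilization. RNA of each pool was amplified in 2 rounds before labelling, and pool sizes are not stated in the labels. The 11-month pool was labelled with Cy5 for replicates 1 and 2 and with Cy3 for replicates 3 and 4, so dye orientation and the identity of the heifers cannot be told apart, and neither can donor age and time of collection. With 4 arrays, the precision of each ratio is limited by their number.

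Serine synthesis starts from the glycolytic intermediate 3-phosphoglycerate and runs through PHGDH, PSAT1 and PSPH. The serine hydroxymethyltransferases SHMT1, in the cytosol, and SHMT2, in mitochondria, split serine into glycine and a one-carbon unit carried by folate. MTHFD1 in the cytosol and MTHFD2 and MTHFD1L in mitochondria interconvert these folate forms, which feed purine, thymidylate and methionine synthesis, and CBS and CTH take homocysteine and serine to cysteine. These roles are background known mainly from human and rodent cells.

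Between 63.6% and 71.6% of probes were above background per pool, and the highest raw median signal was 59161. Of 8 trophectoderm markers, genes of the outer layer of the blastocyst, 7 were on the array and all 7 were above background in all 8 pools, as were all 4 inner cell mass markers. Some markers of cells that a pool could carry along were above background too. Of 11 cumulus and granulosa markers, CYP19A1, INHBA, GREM1, TNFAIP6 and FSHR were above background in all 8 pools and AMH in none. The log2 of the mean signal over that list was 6.88 to 7.01 at 11 months and 6.87 to 7.13 at 14 months. Its 10 tested members had a median ratio of -0.06, with 6 of them below 0. VCAN at -0.31 ± 0.14 (SD, n = 4) and GATM at -0.48 ± 0.22 were below 0 in all 4 heifers, and TNFAIP6 at 0.12 ± 0.10 was above 0 in all 4. VCAN was above background in 0 of 4 pools at 11 months and in 3 of 4 at 14 months. GATM was above it in 3 of 4 pools at each age. Of 8 oocyte markers, FIGLA was above background in all 8 pools, BMP15 and ZP3 in 7, ZP2, ZP4 and H1-8 in 6, NLRP5 in 5 and GDF9 in none, and the signal of the list was 6.74 to 6.94 at 11 months and 6.83 to 6.88 at 14 months. Of 4 sperm markers, PRM1 and TNP1 were above background in 7 of 8 pools and ODF1 and AKAP4 in none, with a list signal of 6.54 to 7.30 and 6.60 to 6.82. The trophectoderm list lay at 12.6 to 13.6 and 12.6 to 13.7, and the inner cell mass list at 10.5 to 11.0 and 10.2 to 10.8. The inner cell mass markers did not move together: NANOG had a mean ratio of 1.12 ± 0.37, POU5F1 0.04 ± 0.13, SOX2 -0.30 ± 0.77 and SPP1 -0.48 ± 0.19, with a median of -0.13. The part of these cell types in the results was not tested. In such pools, fewer cells of a type and less RNA per cell cannot be told apart.

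The largest differences among the enzymes were those of PHGDH, at the entry to serine synthesis, and of SHMT1, the cytosolic serine hydroxymethyltransferase. PHGDH had the lowest mean log2 ratio of the 10, -0.88 ± 0.28 (SD, n = 4 heifers), and SHMT1 had the highest, 0.67 ± 0.46. These were the only ones of the 10 whose brightest probe had one sign in all 4 heifers. Their ratios were 1.84-fold lower and 1.59-fold higher at 11 months. With limma and Benjamini-Hochberg adjustment over 36447 probes, none of the 16 probes passed an adjusted p of 0.05, and none of all probes did (0%), with 3352 of them under an unadjusted p of 0.05 (9.2%). Among the 16, 3 lay lower at an unadjusted p under 0.05, PHGDH, PSPH and CTH, beside 5.11% of all probes, and 2 lay higher, SHMT1 and MTHFD2, beside 4.09%. One sign in all 4 heifers was seen for 2 of the 16 probes, beside 16.7% of all probes. Nothing is read from these shares, since the same contrast chose the genes.

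**Figure D1:**
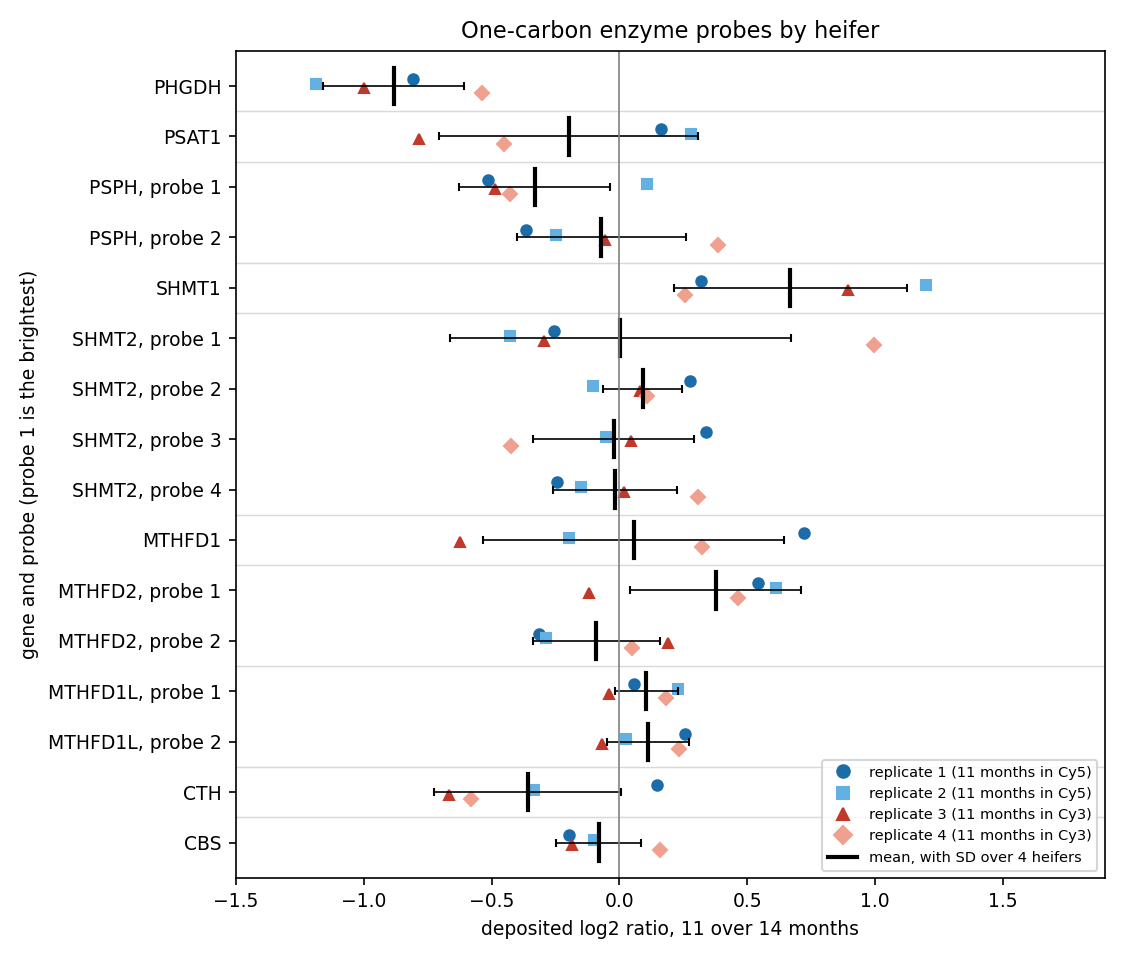
Deposited log2 ratio of 11 over 14 months (x axis) for each of the 16 probes (y axis), with 1 point per heifer, symbols by replicate, and the mean with its SD over 4 heifers. PHGDH lies below 0 and SHMT1 above 0 in all 4 heifers, while the points of PSAT1 fall on both sides of 0 by dye orientation.

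PHGDH oxidizes 3-phosphoglycerate and is the first enzyme of the serine pathway. Its normalized log2 signal was 10.48, 9.85, 9.54 and 9.70 in the 11-month pools of replicates 1 to 4 and 11.36, 11.06, 10.45 and 10.21 in the 14-month pools. Within every heifer the 11-month pool was the lower one, although the ranges of the ages overlapped across heifers. The deposited log2 ratios were -0.81, -1.19, -0.998 and -0.54, with a mean of -0.997 in the 2 heifers with the 11-month pool in Cy5 and -0.77 in the 2 with the dyes turned. By its mean, PHGDH ranked 22 from the lowest of 13519 genes. Its adjusted p was 0.328 with limma and Benjamini-Hochberg adjustment. It was 0.0257 in the same model with a term for the dye orientation of each probe, under which 1.02% of all probes passed. Since PHGDH was known to be extreme when the set was chosen, these values are a description. Before normalization, the raw median signals of PHGDH at 11 and 14 months were 1397 and 3349, 684 and 2643, 966 and 1003, and 1028 and 922 in replicates 1 to 4. The raw order of the ages was thus turned in replicate 4, where the median raw signal over all probes was 185 in Cy3, the channel of the 11-month pool, and 80 in Cy5.

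PSAT1, the aminotransferase of the next step, was split by dye orientation. Its log2 ratios were 0.16 and 0.28 with the 11-month pool in Cy5 (replicates 1 and 2) and turned to -0.78 and -0.45 with it in Cy3, giving -0.20 ± 0.51. The normalized log2 signal of PSAT1 was 13.25, 13.24, 12.37 and 12.55 at 11 months and 13.16, 12.95, 13.14 and 13.11 at 14 months, so that replicates 3 and 4 at 11 months were the low pools. The value of Cy5 over Cy3 for PSAT1 was 0.42 on the log2 scale, in which dyes and heifers cannot be told apart. For PSAT1 the limma test of dye orientation gave an adjusted p of 0.0757 with Benjamini-Hochberg adjustment. None of the 16 probes passed that test, beside 2.38% of all probes.

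PSPH, the phosphatase that releases serine, had a brighter probe with log2 ratios of -0.52, 0.11, -0.49 and -0.43 and a mean of -0.33 ± 0.30. Its normalized log2 signal was 8.90, 9.43, 7.98 and 8.26 at 11 months and 9.44, 9.38, 8.45 and 8.62 at 14 months. The 11-month pool was lower in 3 heifers, and replicate 2 stood apart with nearly equal pools. The second PSPH probe had ratios of -0.37, -0.25, -0.06 and 0.39, but it was above background in 1 of 4 pools at 11 months and 2 of 4 at 14 months.

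Averaged over PHGDH, PSAT1 and PSPH, the log2 ratio of serine synthesis was -0.39, -0.27, -0.76 and -0.47 in replicates 1 to 4, a mean of -0.47 ± 0.21. Of the 12 values behind it, 9 were below 0, namely 4 of PHGDH, 3 of PSPH and 2 of PSAT1. By their means, 46.1% of all genes lay below 0. Genes measured in the same heifer are not replicates, and PHGDH was known to be extreme when the set was chosen. The 3 enzymes did not share one pattern over heifers, because the ratio of PSAT1 exceeded that of PHGDH by 0.97 and 1.47 in replicates 1 and 2 but by 0.21 and 0.09 in replicates 3 and 4. The ratio of PSPH exceeded that of PHGDH by 0.29, 1.297, 0.51 and 0.11.

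SHMT1, the cytosolic serine hydroxymethyltransferase, had log2 ratios of 0.32, 1.199, 0.90 and 0.26. The normalized log2 signal of SHMT1 was 9.43, 10.90, 11.27 and 10.17 at 11 months and 9.18, 9.76, 10.29 and 9.92 at 14 months. The 11-month pool was the higher one in every heifer, by least in replicates 1 and 4, and the ranges of the ages overlapped. The orientations gave means of 0.76 and 0.58, and SHMT1 ranked 61 from the highest of 13519 genes. Its adjusted p was 0.355 in the limma fit with Benjamini-Hochberg adjustment and 0.0868 with the dye term. The raw median signals of SHMT1 were 665 and 766 in replicate 1, with the 14-month pool the brighter, and 1411 and 1059, 3056 and 909, and 1412 and 742 in the others.

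SHMT2, the mitochondrial enzyme, was represented by 4 probes. The brightest had log2 ratios of -0.26, -0.43, -0.30 and 1.00, so that its mean of 0.00 ± 0.67 joined 3 heifers below 0 and 1 above. Its normalized log2 signal was 9.79, 9.29, 9.78 and 10.37 at 11 months and 10.11, 9.76, 9.98 and 9.41 at 14 months. In replicate 4 the 11-month pool was the highest of all 8, and of the 14-month pools replicate 4 was the lowest. The dimmer SHMT2 probes did not show this value in replicate 4, at 0.11, -0.42 and 0.31, and their means were 0.09 ± 0.16, -0.02 ± 0.31 and -0.02 ± 0.24. Of these 3 dimmer probes, 2 were near background: one was above it in 3 of 4 pools at each age, and another in 1 of 4 at 11 months and 2 of 4 at 14 months.

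Averaged over SHMT1 and SHMT2, the log2 ratio was 0.03, 0.39, 0.30 and 0.63 in replicates 1 to 4, a mean of 0.34 ± 0.25 that rested on SHMT1 in the first 3 heifers and on SHMT2 in the last. The ratio of SHMT1 exceeded that of PHGDH within each heifer by 1.13, 2.39, 1.89 and 0.80 on the log2 scale, a mean gap of 1.55 ± 0.72. Both genes were singled out for their ratios, so this gap is a description. The gap of SHMT1 over SHMT2 was 0.58, 1.63 and 1.19 in replicates 1 to 3 and -0.74 in replicate 4, a mean of 0.66 ± 1.03 that was smaller than its spread.

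**Figure D2:**
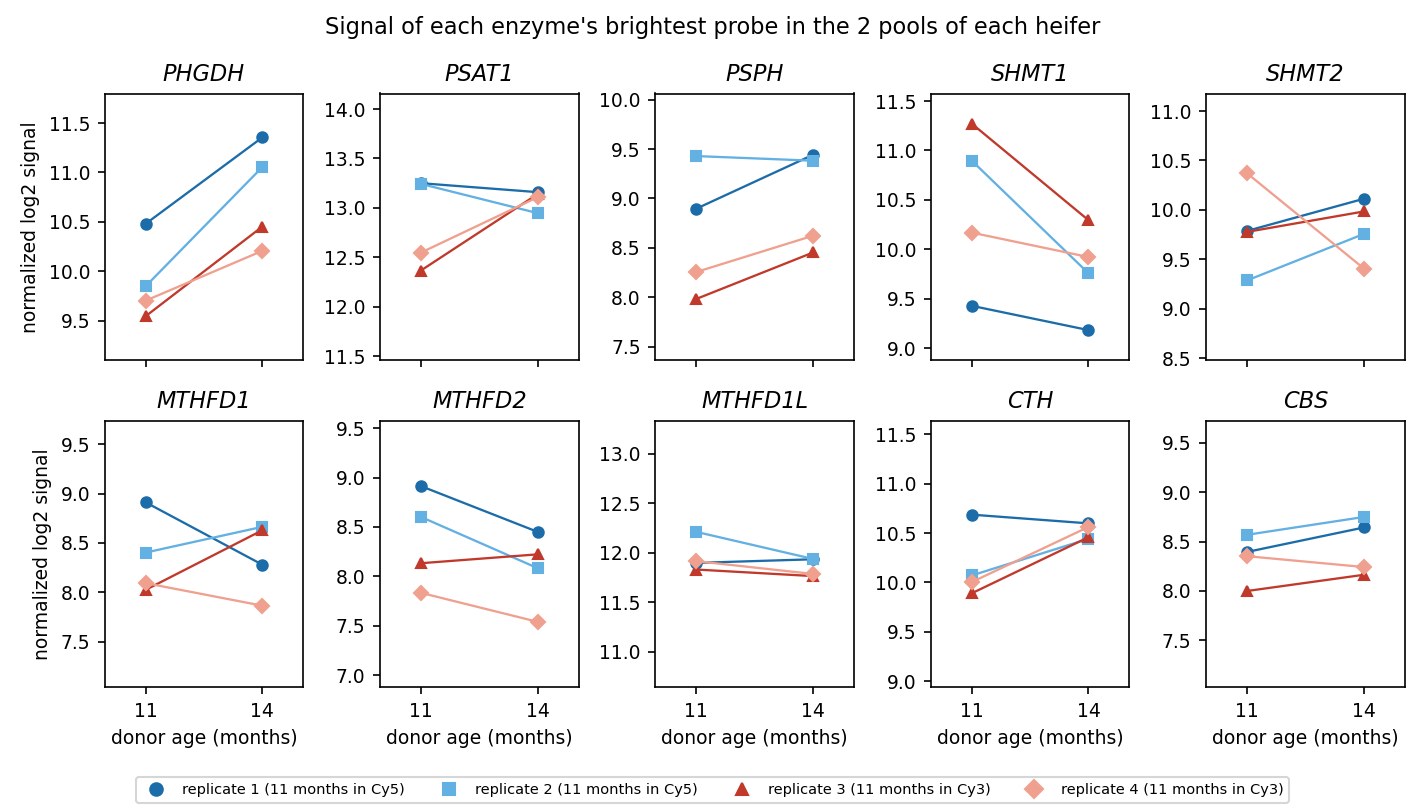
Normalized log2 signal (y axis) of the brightest probe of each of the 10 enzymes at donor ages of 11 and 14 months (x axis), with a line joining the pools of 1 heifer; panels span the same range of log2 units but start at different levels. All 4 lines go up for PHGDH and down for SHMT1, and the line of replicate 4 crosses the others for SHMT2.

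Among the folate enzymes, MTHFD2 lay highest and none had one sign in all heifers. MTHFD2, the mitochondrial dehydrogenase and cyclohydrolase, had log2 ratios of 0.54, 0.61, -0.12 and 0.47 at its brighter probe, a mean of 0.38 ± 0.34. In normalized log2 signal, MTHFD2 stood at 8.91, 8.60, 8.13 and 7.83 at 11 months and 8.45, 8.08, 8.22 and 7.54 at 14 months. Replicate 3 was the one heifer in which the 14-month pool was the higher. The dimmer MTHFD2 probe, at -0.31, -0.29, 0.19 and 0.05, had a mean of -0.09 ± 0.25. Its sign was opposite to that of the brighter one in replicates 1, 2 and 3. With a mean log2 signal of 6.86, beside 8.24 for the brighter probe, it lay near the background limit of 6.50. The dimmer probe thus did not repeat the ratios of the brighter one, but its own ratios are limited by low signal.

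MTHFD1L, which releases formate from mitochondria, varied least of the 10. Its probes gave 0.06, 0.23, -0.04 and 0.18 and, for the other, 0.26, 0.03, -0.07 and 0.23, with the same mean of 0.11 and SDs of 0.12 and 0.16. The normalized log2 signal of MTHFD1L stayed between 11.83 and 12.21 at 11 months and between 11.76 and 11.94 at 14 months. Both probes placed replicate 3 just below 0 and the other heifers above it.

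MTHFD1, the cytosolic enzyme with 3 activities on folate, had log2 ratios of 0.72, -0.20, -0.62 and 0.33, a mean of 0.06 ± 0.59. Heifers of the same dye orientation lay on opposite sides of 0. The normalized log2 signal of MTHFD1 was 8.91, 8.40, 8.02 and 8.09 at 11 months and 8.28, 8.66, 8.63 and 7.86 at 14 months, and the difference between ages was smaller than the spread between heifers. Averaged over the 3 folate enzymes, the ratio was 0.44, 0.22, -0.26 and 0.32, a mean of 0.18 ± 0.31.

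Of the transsulfuration enzymes, CTH lay further from 0 than CBS. CTH, which cleaves cystathionine to cysteine, had log2 ratios of 0.15, -0.33, -0.67 and -0.58, a mean of -0.36 ± 0.37. In normalized log2 signal, CTH stood at 10.69, 10.07, 9.89 and 10.00 at 11 months and 10.60, 10.44, 10.46 and 10.56 at 14 months. The 14-month pools were close together and the 11-month pools were lower except for replicate 1. The mean of CTH was -0.09 in replicates 1 and 2 and -0.62 in replicates 3 and 4, with the value of Cy5 over Cy3 at 0.27.

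CBS, which joins serine and homocysteine, had log2 ratios of -0.20, -0.10, -0.19 and 0.16, a mean of -0.08 ± 0.17. For CBS the normalized log2 signal was 8.40, 8.57, 8.00 and 8.35 at 11 months and 8.64, 8.75, 8.16 and 8.24 at 14 months. The ranges of the ages overlapped over most of their width, and the mean ratio was smaller than its SD. CTH and CBS together averaged -0.02, -0.22, -0.43 and -0.21 over the heifers, a mean of -0.22 ± 0.16.

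By their brightest probes, 5 of the 10 enzymes had a mean below 0 and 5 above, with a median of -0.04 beside 0.02 over all 13519 genes. The median SD over heifers was 0.35 for the 10 and 0.27 over all genes, with SHMT2, MTHFD1 and PSAT1 the most variable and MTHFD1L and CBS the least. All 10 brightest probes were above background in all 8 pools, as were those of 9120 of the 13519 genes. The part of signal strength in the ratios of the enzymes was not tested.

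Likeness to PHGDH was measured as the Euclidean distance over the 4 log2 ratios, between the brightest probes of genes. Of 13518 other genes, the closest were LOC100295855 at 0.37, ARHGEF19 at 0.43, CLUL1 at 0.46, LOC522428 at 0.50 and NCEH1 at 0.51. The closest of the other enzymes was CTH, at rank 773, followed by PSPH at rank 1231. With 4 values per gene this is a description of closeness and no more.

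The wider pathway was followed in 71 genes of pathways that supply, carry or use serine, glycine and folate units, of which 59 were tested. Of these 59, 6 lay lower at 11 months at an unadjusted p under 0.05, beside 4.21% of all 13519 genes by their brightest probe, and 2 lay higher, beside 5.13%. None passed adjustment. Their median was 0.01, and 29 lay below 0 and 30 above. Each list below is to be read beside these shares, with 46.1% of all genes below 0, 53.9% above and a median of 0.02. Nothing particular to a list is claimed from its counts.

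Carriers of serine, glycine and cystine lay mostly below 0, with 9 of 10 tested genes below (46.1% of all genes) and a median of -0.16, and 2 of the 10 were lower at an unadjusted p under 0.05 (4.21% of all genes). SLC1A4, a neutral amino acid carrier of the alanine, serine and cysteine family, had log2 ratios of -1.18, -1.68, -1.22 and -0.10, a mean of -1.04 ± 0.67. Its second probe averaged -0.59 ± 0.42 and its dimmest -0.05 ± 0.15. The dimmest was above background in 2 of 4 pools at 11 months and 4 of 4 at 14 months. SLC1A5, a glutamine and neutral amino acid carrier of the same family, had -1.03, -0.79, -0.34 and 0.12, a mean of -0.51 ± 0.51. Replicate 4 was the highest of the 4 heifers for both genes, as it was for PHGDH. SLC38A2, another neutral amino acid carrier, was the only carrier above 0, at 0.30 ± 0.81, with replicates 1 and 2 above 0 and replicates 3 and 4 below. Only the brightest of its 3 tested probes is given. SLC38A2 was the only gene of the 59 to pass the limma test of dye orientation, with an adjusted p of 0.0200. By their brightest probes, 318 of all 13519 genes passed that test, so nothing is read from this count.

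In purine and thymidylate synthesis, pathways that take up one-carbon units, 7 of 7 genes lay above 0 (53.9% of all genes). Their median was 0.18, and 1 of the 7 was higher at an unadjusted p under 0.05 (5.13% of all genes). TYMS, the thymidylate synthase, averaged 0.39 ± 0.36 at its brightest probe, with values of 0.40, 0.60, -0.11 and 0.67, but its dimmer probes averaged -0.21 and -0.12. PAICS, of purine synthesis, averaged 0.26 ± 0.18 and lay above 0 in all 4 heifers.

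Of 13 tested genes of the folate cycle and uptake, 6 lay below 0 and 7 above, with a median of 0.01. At an unadjusted p under 0.05, 2 of the 13 were lower (4.21% of all genes) and 1 was higher (5.13%). FOLR2, a folate receptor, was lower in all 4 heifers at -0.72, -1.23, -0.29 and -0.56, a mean of -0.70 ± 0.39. GGH, which trims the glutamate tail of folates, averaged 0.45 ± 0.48 and was above 0 in all 4, though mostly in replicates 1 and 2.

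Serine use and breakdown had 3 of 6 genes below 0 and a median of 0.01. SDS, which breaks serine down to pyruvate, was below 0 in all 4 heifers at -0.20, -0.85, -0.58 and -0.60, a mean of -0.56 ± 0.27 and the one of this list at an unadjusted p under 0.05. PTDSS1, which makes phosphatidylserine, averaged -0.23 ± 0.12 and was also below 0 in all 4.

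In the methionine cycle and betaine branch, 6 of 12 genes lay below 0 with a median of -0.00, and 1 was lower at an unadjusted p under 0.05. That gene was BHMT, the betaine homocysteine methyltransferase, at -0.72 ± 0.95 with values from -2.003 in replicate 4 to 0.27 in replicate 1. BHMT was above background in 3 of 4 pools at each age. MAT1A, which makes S-adenosylmethionine, averaged 0.24 ± 0.39 and was above background in 1 of 4 pools at 11 months and in 0 of 4 at 14 months.

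The cysteine and glutathione list had 4 of 7 genes below 0, a median of -0.00, and 0 genes at an unadjusted p under 0.05. GOT1, an aspartate aminotransferase, averaged -0.28 ± 0.39 and CDO1, a cysteine dioxygenase, 0.13 ± 0.24. The glycine cleavage list had 1 of 4 genes below 0, a median of 0.06, and likewise 0 at that threshold. Of its members, DLD averaged 0.22 ± 0.28 and GCSH 0.11 ± 0.23, and the 3 probes of GCSH gave 0.11, 0.12 and 0.13.

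**Figure D3:**
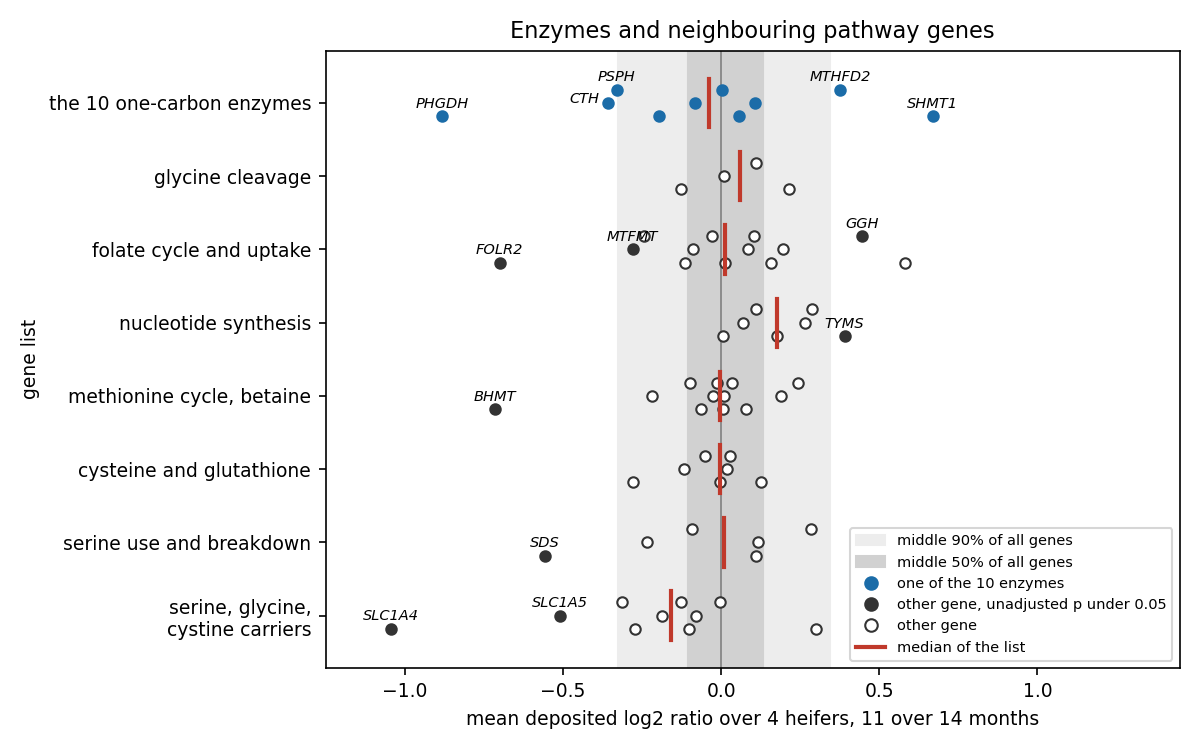
Mean deposited log2 ratio of 11 over 14 months over 4 heifers (x axis) for the 10 enzymes and 7 further lists (y axis); each point is a gene by its brightest probe, red bars are list medians, and grey bands hold the middle 50% and 90% of all 13519 genes. PHGDH and SLC1A4 lie far to the left and SHMT1 to the right, while the list medians lie between -0.16 and 0.18.

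PHGDH and SHMT1 kept their direction under each of the 16 settings tried, but several of these could not have changed it. The filters and the dye term leave a mean ratio as it is. Both genes had one sign in all 4 heifers, so leaving out 1 heifer could not turn their means. PHGDH stayed between -0.91 and -0.86 over the other settings and between -0.998 and -0.78 when 1 heifer was left out, and SHMT1 between 0.52 and 0.67 and between 0.49 and 0.81. With the dye term, the adjusted p of PHGDH from limma was 0.0227 on background-subtracted scanner ratios and 0.0545 on normexp-corrected ones. The side of 0.05 on which it fell thus depended on the setting. As PHGDH was known to be extreme in this contrast when the set was chosen, neither value is a fresh test. SHMT2 and MTHFD1, with means near 0, were each below 0 in 9 of 16 settings, several of which share the same mean and do not count separately. The mean of MTHFD2 dropped from 0.38 to 0.16 with scanner means in place of medians and to 0.14 when both of its probes were averaged. PSPH averaged -0.20 over both of its probes. With scanner means CTH was at -0.24, PSAT1 at -0.35 and CBS at -0.01, and without replicate 3 PSAT1 was at -0.00.

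**Figure D4:**
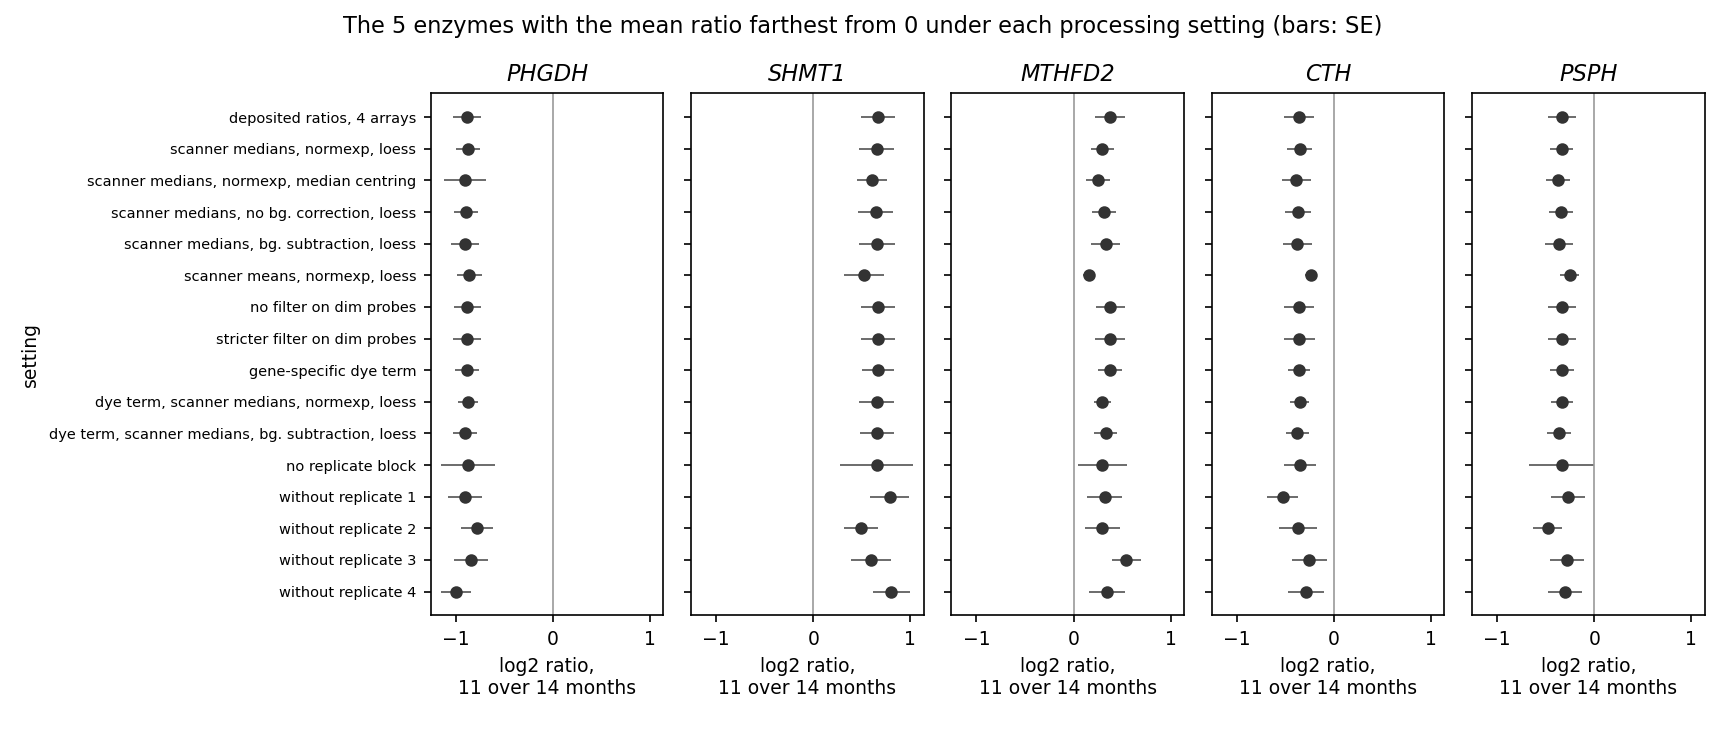
Log2 ratio of 11 over 14 months (x axis) with its SE, for the 5 enzymes farthest from 0, under each of 16 settings of processing or with 1 heifer left out (y axis). No point crosses 0, and the value without replicate 2 is the one closest to 0 for PHGDH and SHMT1.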

How the data were processed

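Per the file headers, the scanner output that was deposited holds linear intensity values for every spot and its local background in Cy3 and Cy5, as means and medians. The authors also deposited a series matrix of log2 ratios, which ran 11 over 14 months when set against the scanner values and the dyes in the labels. Against background-subtracted, loess-normalized scanner ratios, r across probes was 0.986 to 0.993 and slopes were 0.908 to 1.10, which set the base as 2. Against the normexp-corrected ratios behind the levels, r was 0.914 to 0.989 and slopes 0.602 to 0.914, lowest in replicate 4, so level differences can be smaller than the deposited ratios. Its column medians were 0.00853, 0.00336, 0.00104 and 0.0234; for the authors' background correction and normalization, the method was not given in the sources used here. Dye orientation was taken as the technical batch, though it cannot be told apart from the identity of the heifers. Array correlations were 0.56 and 0.31 within orientations and -0.17 to 0.12 between them, and the part of dyes or heifers in this was not tested.

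The matrix ratios were fitted with limma 3.58.1 in R 4.3.3 (lmFit and eBayes, the mean over 4 heifers, two-sided, Benjamini-Hochberg over all 36447 probes kept); a second fit added dye orientation. Each array pairs the ages of a heifer. Residual degrees of freedom were 3 in the fit of the mean alone and fewer in the fit with dye orientation. An exact sign-flip test of 4 values cannot go below 0.125. Levels came from scanner medians, corrected by normexp with an offset of 50, normalized by loess within arrays and by average quantiles between them. Probes were kept if their mean log2 signal exceeded that of 153 negative control spots by over 2 SD, and the same limit per channel defined above background. Alternatives changed background correction, scaling, filter, spot summary and pairing, or left out 1 heifer.

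Symbols came from GEO's platform annotation, with 21790 probes given 1 symbol and 22004 unnamed here; 20025 matched the current reference table, 1524 a synonym and 241 neither. A gene was represented by its brightest probe. All enzymes were named, as were the 2 genes of smallest unadjusted p in each list and the 5 closest to PHGDH; SLC38A2 and the single marker genes were named after their values were seen. The dye term on scanner ratios was an alternative chosen after seeing the data. The enzymes and lists were chosen with earlier results of these data known. Of 71 listed genes, 12 were not tested. Plots used Python 3.11.15 and matplotlib 3.10.9.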

Additional observations from a re-analysis of the deposited data

Results flagged for a closer look

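Of 48 groups of 4 values examined among the enzymes, 2 held a heifer far from the others, and chance alone gives about 5% of groups. For the brighter PSPH probe, replicate 2 had a log2 ratio of 0.11 while the others lay between -0.52 and -0.43, so that the gap to the nearest heifer was 0.861 of the whole range, above Dixon's critical value at the 95% level. Without replicate 2, PSPH averaged -0.48. For the brightest SHMT2 probe, replicate 4 had a log2 ratio of 1.00 while the others lay between -0.43 and -0.26, a gap of 0.88 of the range. Without replicate 4, SHMT2 averaged -0.33, and its 3 dimmer probes did not set replicate 4 apart in the same direction at that size.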

How the results depend on the processing

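The number of probes past an adjusted p of 0.05 for donor age was 0 in the limma fit, 373 with a dye term and 398 with a dye term on background-subtracted ratios, and again 0 with a dye term on normexp-corrected ratios. At an unadjusted p under 0.05 it was 3352, and moved to 2050 with median centring, 6025 with the dye term, 5936 and 5981 with it on normexp-corrected and background-subtracted ratios, and 2056 with no replicate block, that is, with channels taken as separate levels. The share of these calls that were higher at 11 months was 44.5%, and 25.6% with no replicate block. Leaving out 1 heifer gave 1637 (without replicate 2) to 3851 (without replicate 4). For dye orientation the count was 869, and moved to 513 with scanner medians, normexp and loess and to 1926 with median centring; leaving out 1 heifer gave 81 to 615, with 96 without replicate 1 and 81 without replicate 2. The number of enzymes at an unadjusted p under 0.05 was 5, between 2 and 3 without 1 heifer, and 1 with no replicate block. Beside these stand 3352 (9.2%), 1637 to 3851 and 2056 of all 36447 probes. Nothing is read from the number of enzymes, since the same contrast chose them. The cause of these shifts was not tested. The second probe of PSPH and 2 of the 3 dimmer probes of SHMT2 are limited by signal near background. The dimmer MTHFD2 probe was above background in 4 of 4 pools at each age, but its mean log2 signal of 6.86 lay near the background limit of 6.50.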

Other observations

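In the folate list, MTFMT, which formylates the initiator transfer RNA of mitochondria, varied little and was below 0 in every heifer, with log2 ratios of -0.25, -0.34, -0.23 and -0.30 and a mean of -0.28 ± 0.05 (SD, n = 4). MTHFD2L, a mitochondrial relative of MTHFD2, varied most of that list, at 1.59, 0.52, 0.62 and -0.40, a mean of 0.58 ± 0.82. SLC3A2, the heavy chain that pairs with several amino acid carriers, was at -0.27, -0.63, -0.78 and 0.42, a mean of -0.31 ± 0.53. These genes were chosen after their values were seen.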
